A study of Mus musculus with 18 samples.

Results

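The genes described here are the cytochrome P450 genes of the mouse other than 4 genes of bile acid synthesis (Cyp7a1, Cyp7b1, Cyp8b1 and Cyp27a1). They were chosen by name, as protein-coding autosomal genes of the GENCODE M1 annotation whose symbol begins with Cyp and a digit, which gave 94 of 21418 autosomal protein-coding genes. Of these, 2 carry a pseudogene suffix in their symbol (Cyp2d37-ps and Cyp2j7-ps) but are annotated as protein-coding. Accessible chromatin sites were formed by merging the peaks of 9 mouse strains, and a site was counted for a gene that it overlapped or lay within 10 kb of. This gave 187 P450 sites of 51302 autosomal sites, of which 19 lay within reach of more than 1 P450 gene and 38 also within reach of a gene that is not a P450.

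Cytochromes P450 are heme enzymes of the endoplasmic reticulum or mitochondria that insert oxygen into small molecules, with electrons passed on by P450 reductase or related carriers. In hepatocytes the families named Cyp1 to Cyp3 oxidise drugs, dietary toxins and steroids, members of family Cyp4 hydroxylate fatty acids and eicosanoids, and the remaining members have fixed roles in the turnover of sterols, steroid hormones, vitamin D and retinoic acid. Many of the drug-metabolising genes lie in tandem clusters of close paralogs and respond to nuclear receptors such as CAR, PXR and PPARα, and several differ between the sexes in mouse liver.

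Livers came from male mice of 7 inbred strains (C57BL/6J, C3H/HeJ, CBA/J, BALB/cJ, DBA/2J, A/J and AKR/J) and of the recombinant strains BXH2/TyJ and BXH19/TyJ, which descend from C57BL/6J and C3H/HeJ. All animals ate a diet rich in fat and sucrose (HF/HS) for 8 weeks from 8 weeks of age, with 2 mice per strain and no group on another diet in these lists. FAIRE-seq, which sequences the DNA that is left free of nucleosomes after formaldehyde fixation, was run on whole liver, and the authors deposited 1 list of peaks per strain holding those found in both mice. A strain therefore has 1 value and no replicate error, so that no difference between strains or gene groups given here could be tested against replicate error. A strain is said to call a site that at least 1 bp of a peak in its list covers, and its strength is given as the percentile of the F-seq signal, a peak caller's score, within that list (100 is the strongest peak). An uncalled site may be accessible at a level under the threshold of the caller, and ranks in different lists do not measure a change in accessibility. Ranges behind a share in parentheses are its 95% exact (Clopper-Pearson) interval. They hold counting error alone, and nearby sites or paralogs in 1 cluster are not independent observations.

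The start sites of the subfamilies that the results turn on differ visibly in sequence. The stretches printed here are the reference bases of mm9, which is the C57BL/6J genome, on the strand of the gene and up to the base before the first start of its protein-coding transcripts, so that variants of the other strains are not shown. Capitals mark matches to any of 8 liver motifs that were searched on both strands, which are spelled out with the motif counts. Other annotated transcripts of Cyp2c70, Cyp3a25 and Cyp4a32 begin farther upstream, within the stretches printed for these genes. The first 3 are shown because start sites of 3 of the 5 Cyp2d genes that have one hold the same repeat at nearly the same place. They were called in 8 or 9 strains, and the start sites of Cyp2d22 and Cyp2d26, called in 9, do not hold it. A second start site of Cyp2d40, called in 5 strains, had no match to it in its middle 300 bases.
Cyp2d9 (chr15:82282607-82282806, + strand): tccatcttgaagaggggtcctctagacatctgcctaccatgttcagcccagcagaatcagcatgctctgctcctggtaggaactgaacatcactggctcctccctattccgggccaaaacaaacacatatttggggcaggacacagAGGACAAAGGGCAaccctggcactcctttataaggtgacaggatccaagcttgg
Cyp2d10 (chr15:82237625-82237824, - strand): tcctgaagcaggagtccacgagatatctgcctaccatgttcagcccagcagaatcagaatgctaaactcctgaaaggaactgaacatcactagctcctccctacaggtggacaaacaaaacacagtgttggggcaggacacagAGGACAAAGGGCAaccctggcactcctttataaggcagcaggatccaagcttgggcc
Cyp2d40 (chr15:82594614-82594813, - strand): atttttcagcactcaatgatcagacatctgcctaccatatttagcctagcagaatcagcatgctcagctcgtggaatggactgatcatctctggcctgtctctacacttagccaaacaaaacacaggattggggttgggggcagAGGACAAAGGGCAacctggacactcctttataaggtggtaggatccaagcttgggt
In these stretches the capitals are 2 copies of AGGNCA with 1 base between them, which end 41 bases before the start of Cyp2d9, 44 before that of Cyp2d10 and 43 before that of Cyp2d40. The aligned stretches of Cyp2d9 and Cyp2d10 were identical at 83.8% of positions, and that of Cyp2d40 matched them at 75.6% and 75.9%.

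The next 3 are shown because they are rich in A and T, hold the HNF4 motif CAAAGTCCA and were called in AKR/J with at most 1 other strain.
Cyp2c67 (chr19:39723542-39723741, - strand): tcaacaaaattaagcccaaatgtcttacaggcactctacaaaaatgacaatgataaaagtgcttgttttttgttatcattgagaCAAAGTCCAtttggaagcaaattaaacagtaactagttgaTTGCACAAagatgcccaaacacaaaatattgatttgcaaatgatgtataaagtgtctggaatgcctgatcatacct
Cyp2c68 (chr19:39815545-39815744, - strand): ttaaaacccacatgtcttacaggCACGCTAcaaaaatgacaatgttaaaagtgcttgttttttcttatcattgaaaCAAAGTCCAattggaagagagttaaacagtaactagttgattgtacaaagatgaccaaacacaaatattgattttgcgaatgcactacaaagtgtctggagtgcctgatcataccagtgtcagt
Cyp2c70 (chr19:40261777-40261976, - strand): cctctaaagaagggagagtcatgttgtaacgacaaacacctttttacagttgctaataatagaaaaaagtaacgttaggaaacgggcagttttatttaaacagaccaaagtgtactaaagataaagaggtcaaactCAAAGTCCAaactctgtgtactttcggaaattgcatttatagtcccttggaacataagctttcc
The capitals of Cyp2c67 nearer the start are a C/EBP match and those of Cyp2c68 farther from it an aryl hydrocarbon receptor match, and the others are the HNF4 motif. The sites that hold these stretches have 31.0%, 32.4% and 37.9% G and C. The stretches of Cyp2c67 and Cyp2c68 matched at 82.8% of positions, and that of Cyp2c70 matched them at 51.9% and 51.4%.

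The Cyp3a start regions are shown because a close pair of paralogs had the same number of calling strains while the best-known member had 1.
Cyp3a25 (chr5:146821194-146821393, - strand): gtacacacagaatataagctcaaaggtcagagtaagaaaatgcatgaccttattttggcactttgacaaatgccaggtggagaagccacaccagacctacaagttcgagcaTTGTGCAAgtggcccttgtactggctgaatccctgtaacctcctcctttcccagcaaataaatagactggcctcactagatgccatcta
Cyp3a59 (chr5:146890634-146890833, + strand): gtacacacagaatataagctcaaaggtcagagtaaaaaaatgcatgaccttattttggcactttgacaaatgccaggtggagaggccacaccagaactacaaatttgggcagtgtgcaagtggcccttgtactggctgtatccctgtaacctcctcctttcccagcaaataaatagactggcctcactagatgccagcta
Cyp3a11 (chr5:146691541-146691663, - strand): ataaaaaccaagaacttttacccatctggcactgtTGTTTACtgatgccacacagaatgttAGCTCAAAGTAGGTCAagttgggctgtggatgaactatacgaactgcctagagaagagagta
Cyp3a25 and Cyp3a59 lie on opposite strands and matched at 95.5% of positions. The C/EBP match of Cyp3a25 is absent from the stretch of Cyp3a59, and both sites were called in 6 strains. The capitals in Cyp3a11 are a FOXA match and, nearer the start, 2 copies of AGNTCA with 4 bases between them.

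The last 3 are shown as the strongest start site of all P450 genes, a hepatocyte gene that was called in every strain but A/J, and an AKR/J site in the Cyp4a cluster.
Cyp4f13 (chr17:33084348-33084547, - strand): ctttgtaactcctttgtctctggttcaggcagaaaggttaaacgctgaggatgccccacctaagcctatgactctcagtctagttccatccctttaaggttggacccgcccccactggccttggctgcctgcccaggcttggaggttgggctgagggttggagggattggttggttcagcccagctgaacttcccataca
Cyp2e1 (chr7:147949438-147949637, + strand): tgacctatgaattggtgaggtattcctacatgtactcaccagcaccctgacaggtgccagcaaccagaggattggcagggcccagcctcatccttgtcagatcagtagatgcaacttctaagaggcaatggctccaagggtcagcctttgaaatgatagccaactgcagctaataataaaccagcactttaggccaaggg
Cyp4a32 (chr4:115273380-115273579, + strand): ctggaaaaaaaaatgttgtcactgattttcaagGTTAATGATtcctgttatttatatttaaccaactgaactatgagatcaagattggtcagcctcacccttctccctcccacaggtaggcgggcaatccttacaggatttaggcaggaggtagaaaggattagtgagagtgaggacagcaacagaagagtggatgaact
None of the 8 motifs was found in the stretches of Cyp4f13 and Cyp2e1, which says only that those letters are not there. The capitals of Cyp4a32 are a match to the HNF1 motif.

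The 9 lists held 26769 to 30613 peaks, and the reads behind them were not analysed here. The tissue label was checked against marker genes. Of 6 hepatocyte genes, 6 had a start site, 2 of them (Apoa1 and Hnf4a) in all 9 strains, against 60.1% and 41.3% of all genes. That of Ttr was called in 8 strains at percentiles of 32.6 to 62.7. Those of Alb (2 strains, 7.59 to 15.2), Tat (4 strains, 4.99 to 16.1) and Cps1 (1 strain, 5.63) had low percentiles. Of 4 Kupffer cell and leukocyte genes 0 had a start site, and 1 of 2 endothelial, 2 of 2 stellate, 2 of 3 cholangiocyte, 1 of 1 neuronal and 0 of 1 muscle genes had one, of which Sox9 was the 1 called in all 9 strains. In whole liver, fewer cells of a type and less accessible DNA per cell cannot be told apart. The lists of A/J and AKR/J stood apart in base composition. Mean GC content was 58.7% over the sites of the A/J list and 53.8% over those of AKR/J, with 54.0% to 55.8% in the other 7 lists, and the sites called in A/J alone averaged 61.9% GC and those in AKR/J alone 42.7%. The cause of this difference was not tested, and the main shares are also given without these lists.

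Most P450 genes had accessible chromatin nearby, but start sites shared by all strains were found for a smaller share of them than of all genes. At least 1 site lay within reach of 70 of 94 P450 genes (74.5%, 64.4 to 82.9), against 72.9% of all autosomal protein-coding genes. A start site, here a site within 1 kb of an annotated transcript start, was found for 46 (48.9%, 38.5 to 59.5), against 60.1% of all genes. A start site called in all 9 strains was found for 16 (17.0%, 10.1 to 26.2), against 41.3%. The share with any site was thus near that of all genes, while the shares with a start site, and with one in all strains, lay below it.

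Over the 187 sites, 44 were called in all 9 strains (23.5%, 17.6 to 30.3), against 26.6% of all autosomal sites and 29.1% of those within 10 kb of a protein-coding gene. There were 60 sites called in 1 strain (32.1%, 25.5 to 39.3), against 26.6%, and 64 called in 2 to 7 strains (34.2%, 27.5 to 41.5), against 38.1%. The remaining 19 were called in 8 strains (10.2%, against 8.77% of all autosomal sites), and at 14 of these the missing strain was A/J. How many of all autosomal sites called in 8 strains lacked A/J was not counted, so the 14 are not set apart from sites at large. Without A/J, 34.7% of the P450 sites (27.5 to 42.5) and 36.0% of all sites were called in every remaining strain. Without A/J and AKR/J these shares were 39.5% (31.5 to 47.8) and 38.0%, and the shares of sites in a single strain were 23.1% and 21.6%. The P450 and background shares thus lay closer together without these lists.

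Of the 51 P450 start sites, 16 were called in all 9 strains (31.4%, 19.1 to 45.9), and with the sites that lie at the start of any protein-coding gene the count was 22 of 58 (37.9%, 25.5 to 51.6), against 53.5% of all start sites. Without A/J, 19 of 48 P450 start sites (39.6%, 25.8 to 54.7) and 63.5% of all start sites were called in every remaining strain, and without A/J and AKR/J 19 of 41 (46.3%, 30.7 to 62.6) and 64.4%. Away from starts the P450 share was near that of all sites. There, 22 of 129 P450 sites were called in all 9 strains (17.1%, 11.0 to 24.7), against 14.9% of all such sites near genes. P450 start sites had a mean GC content of 51.4% ± 9.0 (SD over 51 sites), and start sites of all genes 60.3% ± 6.4 (SD over 15456 sites). Among start sites with at least 55% GC, 9 of 17 P450 sites (52.9%, 27.8 to 77.0) and 56.8% of all were called in all 9 strains. With 45 to 55% GC the values were 7 of 23 (30.4%, 13.2 to 52.9) and 42.7%, and below 45% they were 0 of 11 (interval up to 28.5%) and 7.85%. Without A/J and AKR/J the values were 9 of 14 (64.3%) and 68.1% in the highest range of GC, 10 of 23 (43.5%) and 53.3% in the middle one, and 0 of 4 and 18.2% in the lowest. Start sites under 45% GC made up 21.6% of the P450 start sites and 1.90% of all start sites.

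Subfamilies differed in how many strains shared their sites. The 24 genes outside the subfamilies named below (called others here) had 24 of 63 sites called in all 9 strains (38.1%, 26.1 to 51.2), and Cyp4f had 7 of 19 (36.8%, 16.3 to 61.6). Cyp1 had 3 of 11, Cyp2d 6 of 28, Cyp2b 1 of 5, Cyp2j 1 of 6, Cyp2f 1 of 7 and Cyp2c 1 of 17. In Cyp2a (10 sites), Cyp2e (4), Cyp2g (1), Cyp3a (10) and Cyp4a (7), 0 sites were called in all 9 strains, with intervals that reach up to 30.8% for Cyp2a and Cyp3a and 41.0% for Cyp4a. Several of these counts rest on the A/J or AKR/J list. Without A/J, 5 of 17 Cyp2c sites (29.4%, 10.3 to 56.0), 10 of 26 Cyp2d sites (38.5%, 20.2 to 59.4), 1 of 4 Cyp2e sites and 27 of 49 sites of the others (55.1%, 40.2 to 69.3) were called in every remaining strain. Without AKR/J as well, the Cyp2c count was 5 of 11 (45.5%, 16.7 to 76.6) and the Cyp2d count 10 of 24 (41.7%, 22.1 to 63.4). The counts of Cyp2a (10 sites), Cyp3a (6) and Cyp4a (3) were 0 without both lists too, with intervals up to 30.8%, 45.9% and 70.8%. Subfamilies also differed in the density of sites. Per 100 kb of gene with its flanks there were 1.22 sites in Cyp2j, 1.74 in Cyp2c, 2.10 in Cyp2b, 2.16 in Cyp3a, 2.89 in Cyp4a and 3.10 in Cyp2g, against 14.0 in Cyp2d, 14.7 in Cyp1 and 3.51 over all genes.

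**Figure D1:**
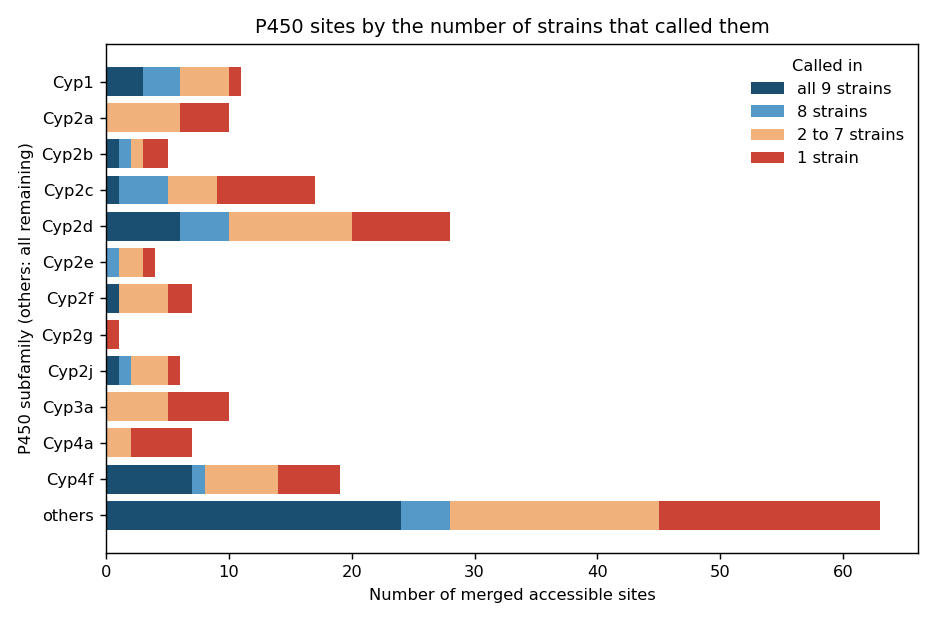
Number of merged sites (x axis) of each P450 subfamily (y axis), split by how many of the 9 strains called them. Cyp4f and the remaining genes hold most of the sites called in all 9 strains, and Cyp2a, Cyp2e, Cyp2g, Cyp3a and Cyp4a hold 0 (1 site in reach of Cyp2a5 and Cyp2g1 is drawn in both rows).

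Among the 24 genes without any site, 8 belonged to Cyp2c (Cyp2c37, Cyp2c38, Cyp2c40, Cyp2c50, Cyp2c54, Cyp2c65, Cyp2c66 and Cyp2c69) and 5 to Cyp2j. The others were Cyp2b9, Cyp2b23, Cyp2d34, Cyp3a41a, Cyp3a41b, Cyp3a57, Cyp4a12b, Cyp4f18, Cyp4x1, Cyp11a1 and Cyp11b1. Only reads with a single location were kept by the authors, so the share of each gene that is repeated elsewhere in the genome was measured. Over the 94 genes the median share of 100-base words found at another place in mm9 was 2.38%, and it was 64.05% in Cyp3a41a, 64.9% in Cyp3a41b and 27.4% in Cyp4a12b. It was 0.04% in Cyp3a57 and 2.67% in Cyp2c37, which also had no site. How far repeated sequence sets the calls was not tested.

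Cyp1 genes metabolise polycyclic aromatic compounds and are the classical targets of the aryl hydrocarbon receptor. The start site of Cyp1a1 was called in 8 strains, with percentiles of 17.6 in C57BL/6J to 78.8 in A/J and a median of 49.6. The start site of Cyp1a2, a main P450 of hepatocytes, was called in 7 strains at 8.04 (A/J) to 65.1 (BALB/cJ) with a median of 38.0. Cyp1b1, known mainly outside the liver, had a start site in 8 strains at 2.67 (C57BL/6J) to 45.1 (BXH2/TyJ) with a median of 29.7. DBA/2J was the strain without a call at all 3 starts, and BXH2/TyJ also lacked that of Cyp1a2. In DBA/2J, 4 of 11 Cyp1 sites were called (36.4%), against 7 to 10 of 11 in the other 8 strains, and its list was the shortest. The 3 Cyp1 sites called in all 9 strains all lay downstream of Cyp1a2 or Cyp1a1. The strongest was 10726 bp from the start of Cyp1a1, at percentiles of 56.3 to 79.8.

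Cyp2a genes hydroxylate coumarin and steroids. Start sites were found for Cyp2a12 and Cyp2a22, in 6 and 7 strains with medians of 23.8 and 42.4, and their printed-length start stretches matched at 84.4% of positions. Neither was called in A/J, and DBA/2J lacked that of Cyp2a22, C3H/HeJ and BXH2/TyJ that of Cyp2a12. No start site was found for Cyp2a4 or Cyp2a5, in which 17.9% and 23.5% of the 100-base words occur elsewhere. BALB/cJ had calls at 9 of the 10 Cyp2a sites and the other strains at 1 (A/J) to 6 (CBA/J). Of the 10 sites, 4 were called in 1 strain. Those called in BALB/cJ alone are in the set only through its list, which raises its count. At the site 8677 bp from the start of Cyp2a4, 6 strains had a call, from 19.7 in BXH19/TyJ to 67.2 in BALB/cJ, and C57BL/6J, DBA/2J and BXH2/TyJ had none.

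Cyp2b10 is the hallmark target of the receptor CAR in mouse liver and responds to phenobarbital. Its own start was called in BALB/cJ (37.0) and C3H/HeJ (32.2) and in no other strain. The site that all 9 strains shared lay 2068 bp upstream, at percentiles of 0.21 in A/J, 51.0 in BXH2/TyJ, 62.5 in BXH19/TyJ, 67.9 in AKR/J, 72.4 in DBA/2J, 73.4 in C3H/HeJ, 78.3 in BALB/cJ, 79.4 in CBA/J and 82.3 in C57BL/6J. This range of 82.1 was the widest of the P450 sites called in all 9 strains, and the 8 strains other than A/J lay between 51.0 and 82.3. A site 4020 bp upstream was called in every strain but BXH2/TyJ. Cyp2b13 and Cyp2b19 had 1 site each, in 1 strain, and Cyp2b9 and Cyp2b23 had none.

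Cyp2c enzymes oxidise drugs and arachidonic acid, and Cyp2c70 makes the muricholic acids of mouse bile. Start sites were found for 4 of 15 genes. Those of Cyp2c39 (24.9), Cyp2c68 (19.2) and Cyp2c70 (34.3) were called in AKR/J alone, and that of Cyp2c67 in AKR/J (21.0) and BXH19/TyJ (0.79). AKR/J had calls at 15 of the 17 Cyp2c sites (88.2%), while the other strains had 2 (A/J) to 8 (C57BL/6J and BXH19/TyJ). Without AKR/J, 11 Cyp2c sites were left. The Cyp2c sites had a mean GC content of 42.3%, against 51.6% over all P450 sites. The stronger Cyp2c sites were shared. The intronic site 4066 bp into Cyp2c67 was called in all 9 strains at 26.0 to 82.4, the one 1142 bp into the gene in 8 strains at 38.7 (BXH2/TyJ) to 89.3 (BALB/cJ), and a site 24407 bp downstream of the start of Cyp2c44 in 8 strains at 66.4 to 80.6. A/J was the strain missing from both sites called in 8 strains.

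Cyp2d enzymes are the debrisoquine hydroxylases, with Cyp2d9 a male-predominant steroid hydroxylase. Of 9 genes 5 had a start site, 3 of them in all 9 strains. Cyp2d22 lay at 72.5 to 84.1 (median 77.5), Cyp2d26 at 10.6 to 69.5 (median 56.6) and Cyp2d40 at 15.3 to 55.6 (median 29.96). Cyp2d9 (43.4 to 76.1) and Cyp2d10 (23.1 to 79.4) were called in every strain but A/J. Cyp2d22 had the narrowest spread of these, and A/J was lowest at Cyp2d26 and Cyp2d40. The site 18123 bp downstream of the start of Cyp2d22, which also lies near Ndufa6, had percentiles of 99.2 in C57BL/6J and 97.7 in DBA/2J. The other 7 strains lay between 40.6 (AKR/J) and 57.4 (C3H/HeJ), with BXH2/TyJ at 44.6 and BXH19/TyJ at 57.2. This division of the strains was read from the same percentiles. An intronic site of Cyp2d22 was called in C57BL/6J and DBA/2J and in no other strain. Of the 100-base words of the downstream site, 4.86% occur elsewhere in mm9.

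Cyp2e1, which oxidises ethanol and acetaminophen, was called at its start in 8 strains. The percentiles were 12.3 in DBA/2J, 50.9 in BXH2/TyJ, 56.1 in AKR/J, 57.4 in BXH19/TyJ, 59.9 in C3H/HeJ, 68.9 in CBA/J, 74.6 in C57BL/6J and 81.1 in BALB/cJ. A/J had no call there and DBA/2J stood below the other 7 strains. Cyp2f2, the naphthalene-activating P450 of airway and liver, had a start site in AKR/J (14.8), BALB/cJ (14.1) and C57BL/6J (12.0) and an exonic site in all 9 strains at 12.7 to 59.0.

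Cyp2j enzymes epoxidise arachidonic acid. Cyp2j6 was called at its start in all 9 strains at 46.3 to 75.8 (median 57.4). Cyp2j5 had start sites at most in AKR/J, CBA/J and BXH19/TyJ. At Cyp2j11, an intronic site 17422 bp from the start was called in 7 strains, at 35.2 (BXH2/TyJ), 39.7 (BXH19/TyJ), 71.3 (C3H/HeJ), 73.2 (AKR/J), 76.1 (C57BL/6J), 78.4 (DBA/2J) and 81.2 (CBA/J). A/J and BALB/cJ had no call, and both recombinant strains lay below both parents. The neighbouring intronic site was missing in BALB/cJ, at 7.71 in A/J and 5.96 in BXH2/TyJ, and at 37.5 to 83.0 in the other 6 strains.

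Cyp3a11 is the main steroid and drug hydroxylase of this family and a target of PXR. Its start site was called in 1 strain, BALB/cJ, at a percentile of 10.3. Those of Cyp3a25 (2.47 to 56.7) and Cyp3a59 (14.5 to 53.8) were called in 6 strains, and the better shared of 2 start sites of Cyp3a13 in 5. Over the family AKR/J had 8 of 10 sites, BXH19/TyJ 5, BALB/cJ 4, C57BL/6J and CBA/J 3, A/J, C3H/HeJ and BXH2/TyJ 1 and DBA/2J 0. Of the sites of the family, 3 were called in AKR/J alone, each with under 45% GC, so that 7 were left without it.

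Cyp4a enzymes hydroxylate the end of fatty acid chains and, Cyp4a10 and Cyp4a14 above all, are induced through PPARα. In AKR/J a site was called 3888 bp upstream of Cyp4a10 (30.4), 1289 bp upstream of Cyp4a14 (44.7), 7757 bp upstream of Cyp4a31 (23.6), at the start of Cyp4a31 (3.80) and at that of Cyp4a32 (47.0). BXH19/TyJ shared the site of Cyp4a14 (3.12), and no other strain had any of the 5. AKR/J thus had 5 of 7 Cyp4a sites (71.4%) and the other strains 0 to 2, and 3 sites were left without it. The start of Cyp4a12a, a male-predominant gene, was called in BALB/cJ, C3H/HeJ, CBA/J and DBA/2J at 31.0 to 43.4 and in BXH19/TyJ at 0.53. C57BL/6J had no call there or at any other Cyp4a site, and in Cyp4a12a 27.6% of the 100-base words occur elsewhere.

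Cyp4f enzymes inactivate leukotrienes and hydroxylate other fatty acids. The start sites of 4 genes were called in all 9 strains. Cyp4f13 lay at 77.3 (A/J) to 98.8 (C57BL/6J) with a median of 94.97, Cyp4f15 at 61.6 to 81.6, Cyp4f14 at 49.6 to 79.3 and Cyp4f16 at 20.6 (BALB/cJ) to 79.1 (DBA/2J). Cyp4f17 was called in 6 strains at 8.49 to 35.3, and Cyp4f18, on another chromosome, had no site. An intronic site of Cyp4f15 had 9.16 in A/J and 65.1 to 82.2 in the other 8 strains.

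**Figure D2:**
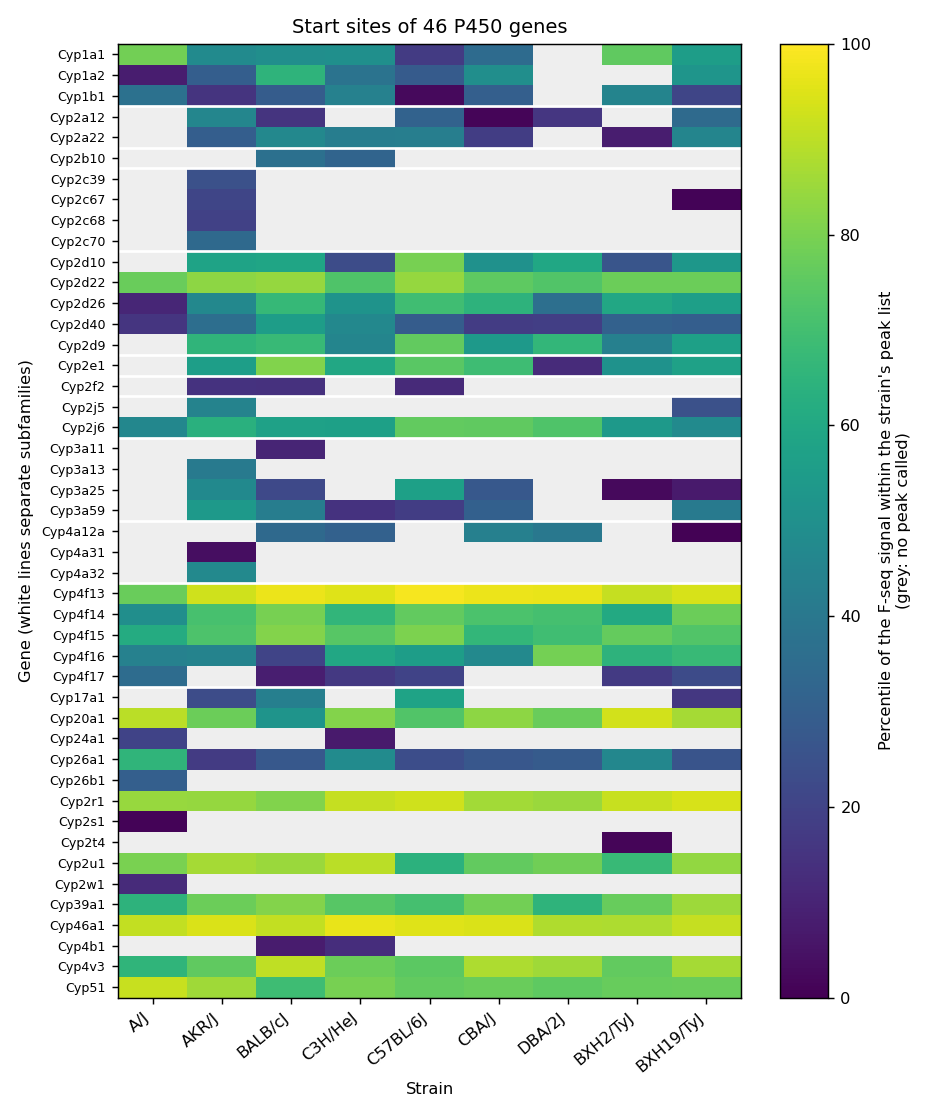
Percentile of the F-seq signal (colour scale, 0 to 100; grey, no peak called) at the start sites of 46 P450 genes (rows, grouped by subfamily) in 9 strains (columns), where a gene with 2 start sites is drawn by the one with the higher mean percentile, so that Cyp3a13 shows the site called in AKR/J alone. Cyp4f13, Cyp46a1 and Cyp2r1 are bright in every strain, and the Cyp2c rows hold calls in AKR/J and 1 in BXH19/TyJ.

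Of the genes of sterol metabolism 3 were listed, without the 4 bile acid genes left out at the outset. All 3 had a start site called in all 9 strains, against 41.3% of all genes. They were Cyp51 (lanosterol demethylation in cholesterol synthesis, 69.1 to 91.8), Cyp39a1 (oxysterol hydroxylation, 64.8 to 85.3) and Cyp46a1 (cholesterol hydroxylation, best known in neurons, 87.8 to 96.8). Of 6 genes of vitamin D and retinoic acid metabolism, 2 had a start in all 9 strains, against 41.3% of all genes. These were Cyp2r1 (81.2 to 93.8), which hydroxylates vitamin D in liver, and Cyp26a1 (17.4 in AKR/J to 65.6 in A/J), which degrades retinoic acid. Cyp24a1 and Cyp26b1 were called in 2 and 1 strains, and Cyp26c1 and Cyp27b1 at no start. Cyp26a1 also had a downstream site, shared with Cyp26c1, at 51.7 to 89.7 in all 9 strains.

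Of 6 genes of steroid hormone synthesis, most active in adrenal and gonad, 4 had a site and 1 a start site, against 72.9% and 60.1% of all genes. That of Cyp17a1 was called in AKR/J (23.1), BALB/cJ (43.2), C57BL/6J (58.2) and BXH19/TyJ (16.1). A second site 13612 bp from the start had calls in the same 4 strains (24.7, 37.6, 58.4 and 6.96), while an exonic site lay at 27.6 (A/J) to 88.9 (BALB/cJ) in all 9. C3H/HeJ had neither of the first 2 sites, and BXH2/TyJ was without them too. Of 6 genes known mainly outside the liver, 4 had a start site, in 1 to 8 strains, and 0 had one in all 9, against 60.1% and 41.3% of all genes. Cyp2s1 and Cyp2w1 were called at the start in A/J alone, at 1.07 and 12.3.

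Of the remaining genes, Cyp4v3, a fatty acid hydroxylase, was called at its start in all 9 strains at 65.6 to 90.4, Cyp20a1 at 51.7 to 93.1 and Cyp2u1, which hydroxylates long-chain fatty acids, at 64.3 to 89.7. Of the 8 sites of Cyp2w1, 5 were called in all 9 strains and none of these at its start. The strongest, which is also within reach of Cox19, lay 6752 bp upstream, at 82.4 to 93.2.

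Of 4 genes listed as male-predominant in mouse liver 3 had a start site (Cyp2d9, Cyp4a12a and Cyp2u1), and of 9 listed as female-predominant (Cyp2a4, Cyp2b9, Cyp2b13, Cyp2c40, Cyp2c69, Cyp3a16, Cyp3a41a, Cyp3a41b and Cyp3a44) 0 had one and 4 had any site. Over all P450 genes 48.9% had a start site, and over all genes 60.1%. All mice were male, so the sexes were not compared, and the female-predominant genes include several with much repeated sequence, from 4.10% of the 100-base words in Cyp3a16 to 64.9% in Cyp3a41b. Of 18 partners and regulators of P450 genes, 18 had a start site and 17 had it in all 9 strains, against 60.1% and 41.3% of all genes. P450 reductase (Por) lay at 97.0 to 99.5, and Hnf4a at 72.3 to 87.8. The PXR gene Nr1i2 was the 1 not shared by all strains, with 7 strains at 14.7 to 51.8, and the CAR gene Nr1i3 lay at 23.2 to 83.5.

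Across strains, the share of the 187 P450 sites that was called ran from 39.0% in DBA/2J to 63.1% in AKR/J. AKR/J had 118 sites (63.1%, 55.8 to 70.0), against 54.3% of all autosomal sites, and was the strain whose share of P450 sites stood most above that of all sites. Of the 118 sites, 19 were called in AKR/J alone, as were 1419 of the 51302 autosomal sites. Such sites are in the sets only through its list, so the gap between the shares depends in part on this selection. BALB/cJ had 106 (56.7%, against 56.4%), BXH19/TyJ 100 (53.5%, against 55.4%) and C57BL/6J 95 (50.8%, against 54.96%). In the remaining strains the P450 share was lower than the share of all sites by a wider margin. CBA/J had 94 (50.3%, against 56.96%), C3H/HeJ 91 (48.7%, against 56.0%), A/J 86 (45.99%, against 54.3%), BXH2/TyJ 82 (43.9%, against 54.8%) and DBA/2J 73 (39.0%, against 46.8%). A start site was called for 36 P450 genes in AKR/J, 34 in BALB/cJ, 32 in BXH19/TyJ and 21 in DBA/2J, with 24 to 30 in the others.

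**Figure D3:**
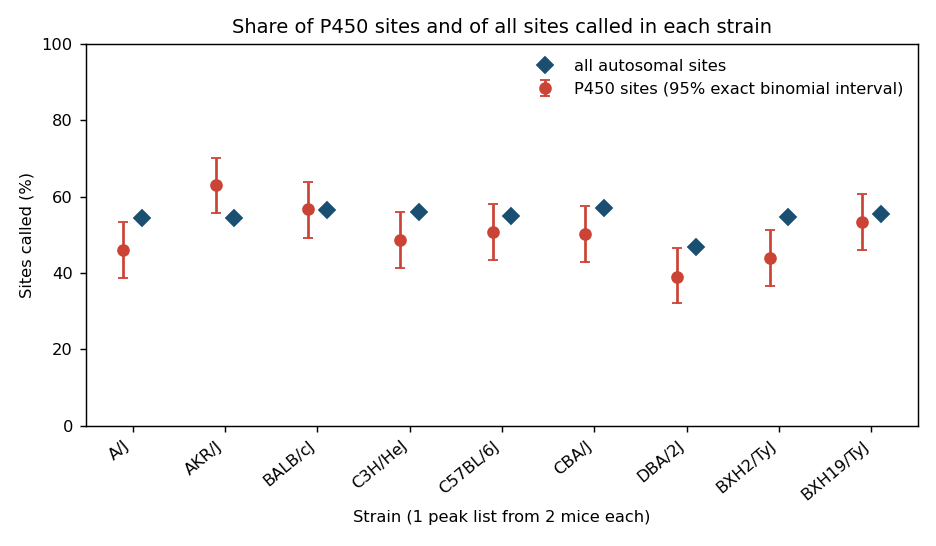
Share of the 187 P450 sites (circles, with 95% exact binomial intervals that cover counting error only) and of the 51302 autosomal sites (diamonds) called in each strain, in percent. AKR/J is the strain whose circle lies farthest above its diamond, at 63.1% against 54.3%.

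The base composition of the P450 sites moved with these shares. Of 31 P450 sites under 45% GC, AKR/J called 30 (96.8%, 83.3 to 99.9) and the other strains 2 (A/J) to 12 (BXH19/TyJ), while over all 4181 autosomal sites of this kind AKR/J called 73.1%, A/J 9.66% and the others 22.7% to 51.7%. Among 97 P450 sites of 45 to 55% GC, AKR/J called 63 (64.9%, 54.6 to 74.4), BALB/cJ 73 (75.3%, 65.5 to 83.5) and A/J 32 (33.0%, 23.8 to 43.3), against 53.2%, 63.1% and 29.4% of all sites. Among 59 of 55% GC or more, A/J called 52 (88.1%, 77.1 to 95.1) and AKR/J 25 (42.4%, 29.6 to 55.9), against 89.6% and 52.0%. Sites under 45% GC made up 16.6% of the P450 sites and 8.15% of all sites. The order of AKR/J and A/J thus turned over between the lowest and the highest range of GC, in P450 sites and in all sites. Sites called in AKR/J or A/J alone are in these sets only through that strain's list, which raises its share where they lie. Such P450 sites numbered 19 in AKR/J, at 31.2 to 46.8% GC, and 20 in A/J, at 49.5 to 69.6%. Of the 11 P450 start sites under 45% GC, 4 were left without the AKR/J list. The shares of both strains in these ranges of GC, and their intervals, therefore depend on this selection. The part of base composition in the strain differences was not tested.

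**Figure D4:**
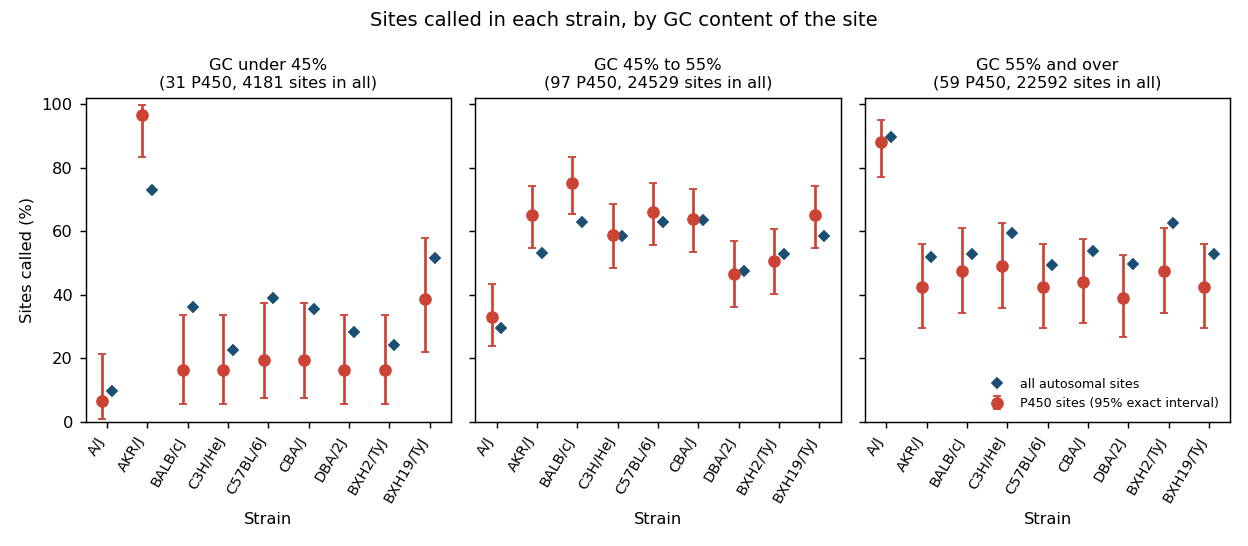
Share of sites called in each strain, in percent, for sites of under 45%, 45 to 55% and at least 55% GC (panels), with circles for P450 sites, bars for their 95% exact binomial intervals of counting error, and diamonds for all autosomal sites. AKR/J is highest in the left panel and A/J in the right panel.

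Of the 60 single-strain P450 sites, 20 were in A/J, 19 in AKR/J, 10 in BALB/cJ, 4 in DBA/2J, 3 in C57BL/6J and 1 in each of the others. The A/J sites averaged 61.4% GC (49.5 to 69.6) and the AKR/J sites 39.8% (31.2 to 46.8), and the median percentiles were 18.7 and 19.2 in the respective lists. Over all autosomal sites, A/J held 42.9% of the single-strain sites and AKR/J 10.4%.

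**Figure D5:**
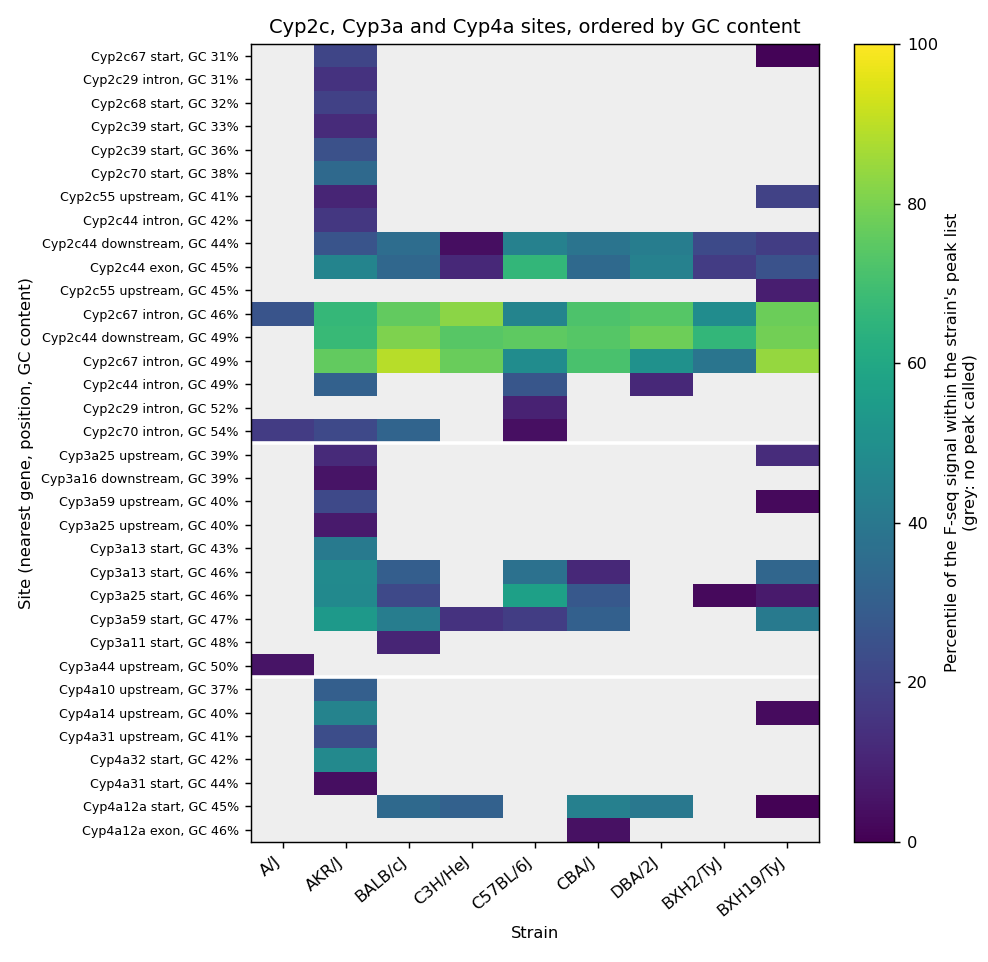
Percentile of the F-seq signal (colour scale; grey, no peak called) at the 34 sites of Cyp2c, Cyp3a and Cyp4a (rows, by rising GC content within each subfamily) in 9 strains (columns). The rows of lowest GC content in each subfamily are filled in AKR/J, a few of them also in BXH19/TyJ, and in no other strain.

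The 10 sites with the most uneven percentiles among those called in 2 to 7 strains, counting no call as 0, lay at Cyp2j11, Cyp2a4, Cyp26b1, Cyp1a2, Cyp46a1, Cyp2a12, Cyp17a1 (2 sites), Cyp3a25 and Cyp27b1. An intronic site of Cyp26b1 was called in 7 strains, from 4.199 in DBA/2J to 74.3 in A/J, with no call in C57BL/6J and BXH19/TyJ. A site downstream of Cyp2a12 was called in 7 strains, at 0.43 in BXH2/TyJ, 1.16 in AKR/J and 29.5 to 55.2 in 5 others, with no call in A/J and DBA/2J. Of these 10 sites A/J had a call at 4, AKR/J at 9 and DBA/2J at 2. The 10 were picked by these same percentiles, and the matching shares over all autosomal sites called in 2 to 7 strains were not computed.

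Among the 44 P450 sites called in all 9 strains, the percentile differed by at least 30 between the highest and lowest strain at 28 (63.6%, 47.8 to 77.6), against 48.5% of all such sites. A/J was the lowest strain at 19 of the 44 (43.2%), and at 30.3% of all such sites. Without A/J the count was 20 of 44 (45.5%), against 33.9%. The 5 widest were the sites upstream of Cyp2b10 (82.1), in an intron of Cyp4f15 (73.0), downstream of Cyp1a2 (63.6), in an exon of Cyp17a1 (61.3) and at the start of Cyp2d26 (58.9), and A/J was lowest at each of them. At the steadiest site, the start of Cyp46a1, the range was 9.07. The summits of the peaks, the point of highest signal, lay a median of 62.5 bp apart between the outermost strains at these 44 sites and 50 bp apart at all sites called in 9 strains.

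The authors' list of variable chromatin sites, the top ranks of their test across the 7 inbred strains, overlapped 13 of the 187 P450 sites (6.95%, 3.75 to 11.6), against 4.87% of all autosomal sites. Their list of common sites, the bottom ranks, overlapped 5 (2.67%, 0.87 to 6.13), against 4.93%. Both lists were drawn from these samples and are no independent evidence on them. The variable sites were 3 sites of Cyp46a1, and 1 each of Cyp2d22 (the downstream site that was strong in C57BL/6J and DBA/2J), Cyp4f39, Cyp26a1, Cyp2c67, Cyp2j11, Cyp2w1, Cyp26b1, Cyp2s1, Cyp2a22 and Cyp19a1. All 9 strains called 3 of the 13, and A/J alone called 3. The common sites lay at Cyp2u1 (called in all 9 strains at 40.3 to 66.8), Cyp26b1 (8 strains), Cyp21a1 (4), Cyp17a1 (3) and Cyp1a2 (2), so that a site ranked as common by read counts could be called in few strains.

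The recombinant strains carry at each locus the DNA of C57BL/6J or C3H/HeJ. Of 112 P450 sites called in either parent, 38 were called in 1 of them only (33.9%, 25.3 to 43.5), against 35.3% of all such sites. BXH2/TyJ shared the call or lack of call of C57BL/6J at 19 of the 38 (50%) and BXH19/TyJ at 20 (52.6%), against 44.6% and 43.9% of all 12209 autosomal sites where the parents differ. BXH2/TyJ was called at 4 of the 21 sites found in C57BL/6J only and at 2 of the 17 found in C3H/HeJ only, and BXH19/TyJ at 9 and 6. Over all sites BXH2/TyJ was called at 32.3% of those found in C57BL/6J only and 44.2% of those found in C3H/HeJ only, and BXH19/TyJ at 33.8% and 46.9%. At Cyp2c both recombinant strains lacked the 3 sites found in C57BL/6J only, and at Cyp3a BXH19/TyJ had both such sites and BXH2/TyJ 1. The parental origin of each locus was not analysed here.

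Sites differed by place. Of 51 start sites 16 were called in all 9 strains, of 43 sites downstream 14, of 22 exonic sites 5, of 50 upstream sites 7 and of 21 intronic sites 2, and 22 of the 50 upstream sites were called in 1 strain. Of the 187 sites, 7 lay at the start of another protein-coding gene and of no P450 gene. The median width was 499 bp, against 498 bp for all sites. The site percentile, the median over its strains, had a median of 29.7, against 30.4 for all sites, and at start sites of 34.3, against 57.7 for all start sites.

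Motifs were counted in the 300 bases at the middle of each site. The HNF4 motif CAAAGTCCA was in 6 P450 sites (3.21%) and in 1.53% of all sites, and 4 of the 6 were Cyp2c sites, at the starts of Cyp2c67, Cyp2c68 and Cyp2c70 and in an intron of Cyp2c44. The others lay at the start of Cyp3a11 and upstream of Cyp2d9. Among start sites the shares were 7.84% (4 of 51) and 0.52%. Of the 6, none was called in all 9 strains, against 144 of the 786 autosomal sites with this motif. AKR/J was the only strain at 3 of the 6, which are in the set only through its list. The HNF1 motif GTTAATNAT was in 5 P450 sites (2.67%), 3 of them in Cyp2c, and in 1.23% of all sites. The paired AGGNCA with 1 base between the copies was in 5 (2.67%), 4 of them in Cyp2d, and in 1.505% of all sites, and the paired AGNTCA with 4 bases between in 2 (1.07%), of Cyp3a11 and Cyp2a4, and in 0.18%.

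The remaining motifs were more frequent. The C/EBP motif TTGCNNAA was in 31 P450 sites (16.6%) and 12.8% of all, the FOXA motif TGTTTAC in 12 (6.42%) and 4.63%, the STAT motif TTCNNNGAA in 15 (8.02%) and 7.51%, and the aryl hydrocarbon receptor motif TNGCGTG in 13 (6.95%) and 5.41%. Of the 13, 3 were Cyp1 sites, among them the start sites of Cyp1a1 and Cyp1b1. A match is a run of letters and not a bound site. Base composition differs between the sets compared, since P450 sites had a mean GC content of 51.6% and all sites 54.5%, and its part in the motif shares was not tested.

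Of the sites nearest the limit of 10 kb, the last inside were a Cyp2d10 site at 9603 bp from the gene (9 strains) and a Cyp2t4 site at 9795 bp (1 strain). The first outside were a site 10059 bp from Cyp27b1 (9 strains) and one 10077 bp from Cyp4x1 (2 strains).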

How the data were processed

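FAIRE-seq of 18 livers, 2 male mice for each of 9 strains, was used. The authors mapped reads with bowtie1 to mm9 carrying the SNPs of the strain, kept uniquely placed, properly paired reads without PCR duplicates, called peaks with F-seq (feature length 400 bp) in each library and combined the replicates by IDR. For the recombinant strains, alignments to mm9 and to the C3H/HeJ genome are described, and which of them made the lists is not given in the sources used here, nor are tool versions or the IDR threshold. The deposited peak lists hold positions and an F-seq signal value, a score for which no scaling between strains is described. The deposited variable and common lists hold positions only. The lists carry no read numbers, and the depth that the study gives for each library was not used here.

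Peaks of the 9 lists were merged, 655 sites on the sex chromosomes were left out, and a call needed an overlap of 1 bp. Where several peaks of a strain met a site, the highest percentile was used. Genes and starts came from GENCODE M1 on NCBIM37 (mm9), and older symbols of listed genes were matched through a RefSeq table. GC content, motifs and words of 100 bases (exact matches, both strands) came from the same genome. Printed stretches are up to 200 bases of a site before the start, in place of the middle 300 bases planned for them, and were aligned globally.

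Named were, for each subfamily, the gene whose start site had the highest mean percentile, the 10 divided sites with the largest SD (no call as 0), the 5 sites in all strains with the widest range, sites on the authors' lists, and the genes of role and marker lists. Further genes were named to complete a subfamily. The members and lists were chosen with earlier results of these data known. Merging and calls were tested on simulated data (50 of 50 cases recovered), as were word counts (99 of 99). With 1 list per strain no test against replicate error was made. Alternatives were other windows (2 kb, 25 kb, gene overlap), the 20000 strongest peaks, other strain sets, the nearest start, mean percentiles, no call as 0 and words of 50 bases, and the omission of A/J and AKR/J together, and of either or both for subfamilies and ranges of GC, was added after seeing the data. Tools were Python 3.11.15, numpy 2.4.6, pandas 2.3.3, scipy 1.17.1, numba 0.67.0 and matplotlib 3.10.9.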

Additional observations from a re-analysis of the deposited data

Results flagged for a closer look

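Over the 9 strains, 13 measures were checked for a strain set apart from the rest by Dixon's criterion, and 3 passed. Its rate of about 1 in 20 by chance does not hold where the sites themselves depend on the strain checked. Sites called in 1 strain alone are in the set only through the list of that strain. DBA/2J had calls at 36.4% of the Cyp1 sites, and the other strains at 63.6% to 90.9%. AKR/J had calls at 88.2% of the Cyp2c sites, against 11.8% to 47.1%. AKR/J also had calls at 71.4% of the Cyp4a sites, against 0% to 28.6%. Without the AKR/J list, 11 Cyp2c and 3 Cyp4a sites were left, from 17 and 7. The criterion therefore cannot judge the AKR/J measures. The Cyp2c and Cyp4a sites had a mean GC content of 42.3% each, and AKR/J called 73.1% of all autosomal sites under 45% GC. The part of base composition in these calls was not tested.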

How the results depend on the processing

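Of the main summary values under each alternative, 119 stayed within 1.5 times the count or within the counting interval of the value reported and 11 did not. Among values of single subfamilies and strains, 147 stayed and 20 moved, 9 of these with the 20000 strongest peaks and 5 with A/J or both A/J and AKR/J left out (Cyp2c, Cyp2d and the others). The number of P450 sites was 87 with gene overlap alone, 117 within 2 kb, 289 within 25 kb and 108 with the 20000 strongest peaks, which follows from the width of the window and the length of the lists. The number on the variable list was 8 with gene overlap and 20 within 25 kb. In the 7 inbred strains, 26.3% of sites were called in more than 1 but in neither all nor all but 1 of the strains. With A/J and AKR/J left out together, 39.5% of sites were called in all remaining strains and 23.1% in 1. The median percentile was 0 with no call counted as 0. With strains left out in turn, the share of sites called in all remaining strains ran from 23.3% to 34.7% (highest without A/J), the share in 1 strain from 27.5% to 36.0%, the share in between from 29.6% to 33.9%, the sites from 167 to 189, the genes with a site from 62 to 70, the genes with a start site in all strains from 16 to 19, the median percentile from 28.8 to 30.6 and the sites on the variable list from 10 to 13. No paired analysis was possible because each list combines the 2 numbered replicates of a strain, and no test against replicate error was made. With words of 50 bases the median share found elsewhere was 8.81%. Read depth was not taken into account, calls follow a threshold, and small subfamilies leave wide intervals, so a count of 0 shared sites does not show that none exist.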
